A study of Mus musculus with 8 samples.

Results

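The Toll-like receptors Tlr1, Tlr2, Tlr3, Tlr4, Tlr6, Tlr7, Tlr8 and Tlr9, the co-receptor Cd14 and the adaptor Myd88 were followed in mouse pancreatic islets. These 10 genes were taken by symbol from the 17097 genes measured. They are covered by 14 of the 28898 probe sets that name a single gene, and where a gene had several, the brightest on average stood for it.

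Islets were isolated from mice of 20 weeks of age in 4 groups with 2 arrays each. PBA-treated hIAPP mice carried a transgene for human islet amyloid polypeptide and were given PBA (4-phenylbutyrate, a chemical chaperone) in water at 1 g/kg/day from 8 weeks of age for 12 weeks. Untreated hIAPP mice carried the same transgene and received nothing. PBA-treated wild-type mice and untreated wild-type mice had no transgene and formed the same pair of treatments. All 4 groups carry the strain label FVB/N-Tg(Ins2-IAPP)RFHSoel/J, wild type included, and its name places the transgene under the Ins2 promoter, which is active in beta cells. Whether the 2 arrays of 1 group are from different animals, pools or repeats is not in the labels, so a p-value here measures the spread between these samples alone, which may be technical.

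Toll-like receptors recognise molecules of microbes and of damaged tissue. TLR2, paired with TLR1 or TLR6, and TLR4 sit at the cell surface, where CD14 hands them lipopeptides and lipopolysaccharide, while TLR3, TLR7, TLR8 and TLR9 read nucleic acids inside endosomes. All of these receptors except TLR3 signal through MYD88 to NF-kB and to inflammatory genes. Within islets, macrophages are a known site of TLR2 and TLR4 signalling.

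The promoters of Tlr2, Tlr3 and Myd88 were read because these genes were above background on every array, and because NF-kB and interferon-regulated factors act downstream of the receptors. Of the 10 genes, 7 had an entry in the promoter table from RefSeq (GRCm38.p6), with 9 windows in all, and Tlr4, Tlr7 and Cd14 had none. Both strands of the 250 bases before each start were searched for a form of the NF-kB site (GGG, 4 bases of any kind, TCC) and for a form of the interferon-stimulated response element (GAAA, 2 bases of any kind, GAAA). The NF-kB letters were in windows of Tlr2, Tlr3 and Tlr6, and 16.5% of all 32851 windows of that length hold them. The response element letters were in windows of Myd88 and Tlr6, against 2.98% of all windows, and the 2 matches in the Tlr6 window overlap each other. A match describes the letters and not the binding of a factor. The stretches of Tlr2 (chr3:83841762-83841791), Tlr3 (chr8:45410572-45410601) and Myd88 (chr9:119340019-119340168) follow, all on the minus strand, 5′ to 3′, with the match in capitals. The Tlr2 and Tlr3 capitals mark the NF-kB letters and the Myd88 capitals the response element letters.
Tlr2: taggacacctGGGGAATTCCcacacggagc
Tlr3: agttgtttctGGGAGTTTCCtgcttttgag
Myd88: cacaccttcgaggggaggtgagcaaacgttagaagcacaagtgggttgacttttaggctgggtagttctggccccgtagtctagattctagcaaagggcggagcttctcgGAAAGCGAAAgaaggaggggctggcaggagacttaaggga
The Tlr2 stretch runs from 183 to 154 bases before the start, the Tlr3 stretch from 221 to 192 and the Myd88 stretch from 150 to 1.

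All values are log2 intensities rounded to 1 decimal by the authors. Over the 23 probe sets that serve as non-specific controls the median was 3.1 and the 95th percentile 4.68, here called the control level, and 40.8% of genes had a mean below it. The beta-cell marker list was above the control level on all arrays for 13 of 13 genes. PBA-treated wild type 1 stood apart in its hybridisation controls, with a median of 6.95 over 18 probe sets, against 9.8 to 10.2 on the other arrays. PBA-treated hIAPP 1 stood apart in its acinar markers, with a median of 9.3 over 13 genes, against 10.8 to 12.7 on the other arrays. The range of the 10 differences for PBA in hIAPP mice, and the Cd14 difference in each comparison, are therefore also given without these 2 arrays. For the lists it is stated whether the counts were smaller.

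Cd14, Myd88, Tlr2 and Tlr3 were above the control level on all 8 arrays. Tlr1, Tlr6, Tlr7, Tlr8 and Tlr9, 5 of the 8 receptors, were below it on all 8 arrays, and Tlr4 reached it on 1. For these 6 genes a difference between groups is printed as a log2 difference only, and background may hide part of it.

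**Figure D1:**
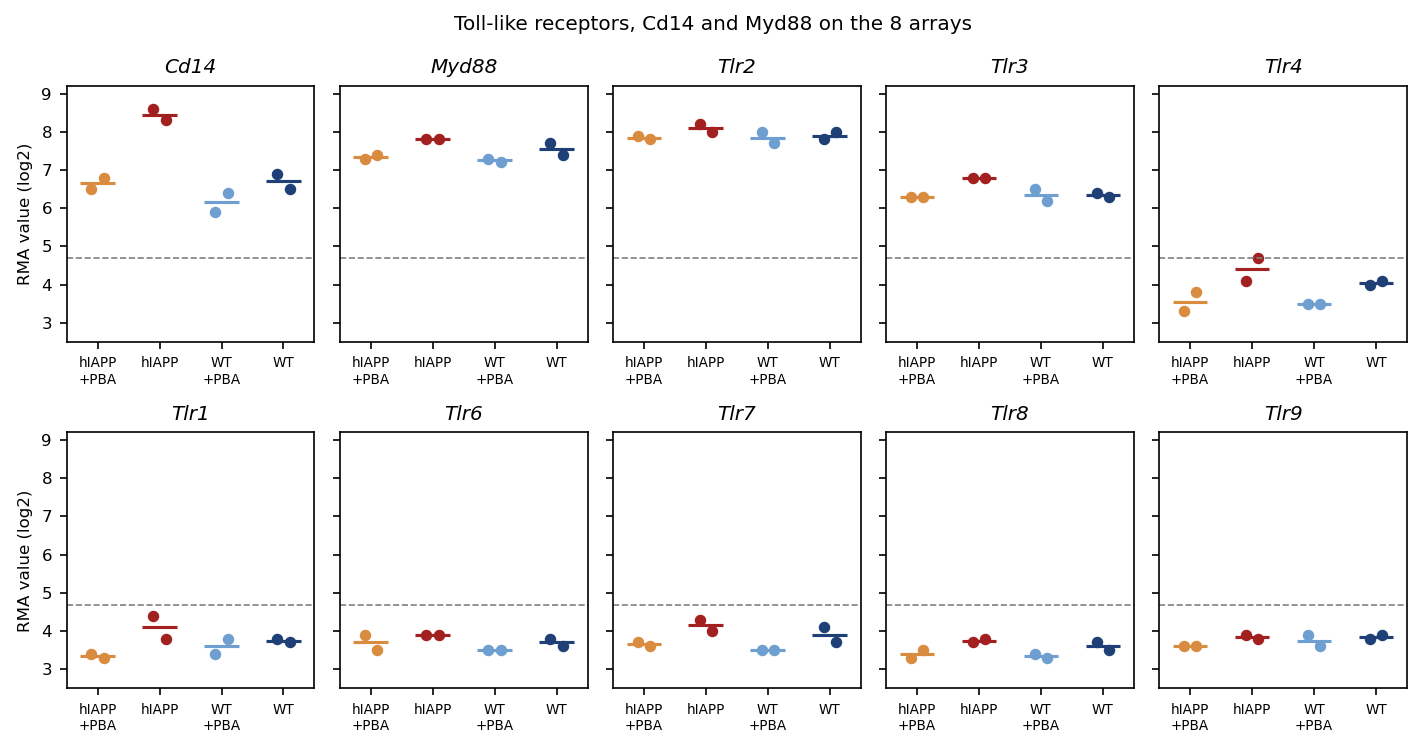
The RMA value (log2, y axis) of each of the 10 genes on the 8 arrays by group (x axis), with points for arrays, horizontal bars for group means and a dashed line at the control level of 4.68. Cd14 stood at 8.6 and 8.3 on the untreated hIAPP arrays and between 5.9 and 6.9 on the other 6, while Tlr1, Tlr6, Tlr7, Tlr8 and Tlr9 stayed under the line throughout.

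The first comparison asked what the transgene changed in islets of mice without PBA. Of the 10 genes, Cd14 alone passed the test, and it was higher in untreated hIAPP islets. The 8 receptors and Myd88 did not pass, although the difference was positive for 7 of the 8 receptors and for Myd88. Tlr3 came nearest, at an adjusted p of 0.0588 by limma. Of all genes, 11.0% were called at an adjusted p below 0.05, 7.77% as higher and 3.19% as lower, so 1 gene called of 10 is near the background. The median of the 10 differences was 0.25, and that of all genes was -0.05. In 4 of the 10 genes (Cd14, Tlr3, Myd88 and Tlr6) each untreated hIAPP array was higher than each untreated wild-type array, which held for 20.9% of all genes.

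The second comparison asked what PBA changed in islets of hIAPP mice. Cd14 was again the only gene of the 10 to pass, and it was lower in PBA-treated hIAPP islets. The other 9 genes had negative differences that did not pass, with adjusted p-values between 0.0504 for Tlr3 and 0.472 for Tlr6. Of all genes, 8.09% were called, 6.32% as lower and 1.78% as higher. The median of the 10 differences was -0.475, and that of all genes was 0. In 9 of the 10 genes, all but Tlr6, both PBA-treated arrays were lower than both untreated ones, which held for 20.8% of all genes, and 7 of the 10 had an unadjusted p below 0.05, as did 23.0% of all genes, 12.8% with a negative difference. Without the 2 arrays that stood apart, the 10 differences lay between -1.65 and -0.25 and 0 of them passed, with limma adjusted p-values from 0.116 to 0.385. The untreated hIAPP arrays are part of both comparisons, so a high value on them raises one difference and lowers the other.

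**Figure D2:**
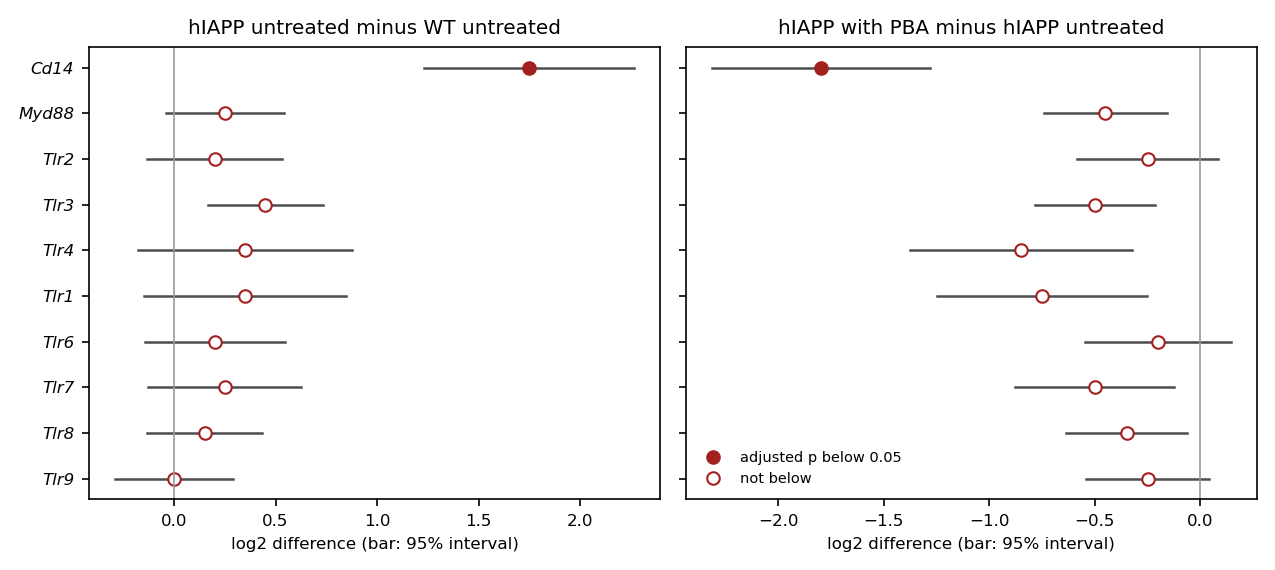
The log2 difference (x axis) of each of the 10 genes with its 95% interval, for untreated hIAPP minus untreated wild type on the left and PBA-treated hIAPP minus untreated hIAPP on the right. Filled points passed an adjusted p of 0.05, and Cd14, at 1.75 and -1.8, was the only filled one in either panel.

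Cd14 is a membrane-anchored and secreted co-receptor that hands lipopolysaccharide to TLR4 and lipopeptides to TLR2. It read 6.5 and 6.8 on the hIAPP arrays with PBA and 8.6 and 8.3 on the untreated hIAPP arrays. It read 5.9 and 6.4 on the wild-type arrays with PBA and 6.9 and 6.5 on the untreated wild-type arrays. The untreated hIAPP arrays were the highest and overlapped with no other group. The PBA-treated wild-type arrays were the lowest, while the PBA-treated hIAPP and untreated wild-type arrays overlapped.

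Without PBA, Cd14 averaged 8.45 ± 0.212 in hIAPP islets and 6.7 ± 0.283 in wild-type islets (SD, n = 2 each). The difference was 1.75 with an SE of 0.22, a 3.36-fold higher level (95% interval 1.23 to 2.27 log2, limma adjusted p = 0.0033). In hIAPP mice, Cd14 averaged 6.65 ± 0.212 with PBA and 8.45 ± 0.212 without it (SD, n = 2 each). The difference was -1.8 with an SE of 0.22, a 3.48-fold lower level (95% interval -2.32 to -1.28 log2, limma adjusted p = 0.0045).

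These calls were not kept when some arrays were left out. The transgene difference was 1.55 without untreated wild type 2 (limma adjusted p = 0.0547), 1.6 without untreated hIAPP 1 (0.0630) and unchanged at 1.75 without the 2 arrays that stood apart, neither of which is in the groups compared (0.0668). The PBA difference in hIAPP islets was -1.65 without untreated hIAPP 1 (limma adjusted p = 0.0805), -1.95 without untreated hIAPP 2 (0.0521), -1.65 without PBA-treated hIAPP 1 (0.0697) and -1.65 without the 2 arrays that stood apart (0.141).

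Macrophage markers, like Cd14, were highest on the untreated hIAPP arrays. Their median in PBA-treated hIAPP islets stayed above that in untreated wild-type islets, where Cd14 overlapped. The median of 20 macrophage genes was 6.8 and 6.4 on the hIAPP arrays with PBA and 7.85 and 7.4 on the untreated hIAPP arrays. It was 5.6 and 5.55 on the wild-type arrays with PBA and 6.05 and 6.1 on the untreated wild-type arrays. Of the 20 genes, 13 were above the control level on all arrays, and Cd163 and Ccr2 were below it on all. For the transgene without PBA, 15 of 20 were higher, against 7.77% of all genes, with a median difference of 1.5. For PBA in hIAPP mice 12 of 20 were lower, against 6.32% of all genes, with a median of -1.0. The summed linear intensity of the 20 genes was 5173 and 4615 on the hIAPP arrays with PBA, against 8189 to 10061 on the untreated hIAPP arrays. It was 2330 to 2468 on the PBA-treated wild-type arrays, against 2935 to 3090 on the untreated wild-type arrays. Fewer macrophages and less RNA per macrophage cannot be told apart in whole islets, and the part of this shift in the Cd14 differences was not tested.

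Markers of other leucocytes were mostly near or below the control level. The median of 8 neutrophil markers was 3.55 and 3.95 in PBA-treated hIAPP islets and 3.7 on both untreated hIAPP arrays. It was 3.65 on both PBA-treated wild-type arrays and 3.95 and 3.75 in untreated wild-type islets. Of the 8, 5, among them Elane, Mpo and Ngp, were below the control level on all arrays. S100a8 and S100a9 of this list, 2 of 8, were lower with PBA in either genotype, against 6.32% of all genes in hIAPP and 0.146% in wild-type mice. S100a8 was also lower with the transgene, against 3.19% of all genes. The summed linear intensity of the 8 was 134 and 131 in PBA-treated and 203 and 192 in untreated hIAPP islets. It was 108 and 102 in PBA-treated and 246 and 302 in untreated wild-type islets. A sum follows its brightest members, and S100a8 read 6.6 and 7.0 on the untreated wild-type arrays. The median difference of the 8 with PBA was 0.025 in hIAPP islets and -0.225 in wild-type islets. The median of 12 lymphocyte markers was 3.85 to 4.0 in PBA-treated hIAPP islets and 4.5 to 4.95 in untreated hIAPP islets. It was 3.6 to 3.7 in PBA-treated wild-type islets and 3.9 to 4.4 in untreated wild-type islets. The median of 4 dendritic cell markers was 4.1 to 4.15 in PBA-treated hIAPP islets and 4.45 to 4.6 in untreated hIAPP islets, and 3.8 to 4.1 in wild-type islets. Markers of islet and other cells also differed. The beta-cell median of 13 genes was 11.4 on both PBA-treated hIAPP arrays and 10.9 on both untreated hIAPP arrays, and 11.2 to 11.4 on the wild-type arrays. The beta-cell list had median differences of -0.35 with the transgene, with Ucn3 and Neurod1 (2 of 13) lower, and 0.4 with PBA in hIAPP mice, with Pcsk1 and Isl1 (2 of 13) higher. The stellate list rose for 12 of 14 genes with the transgene and fell for 11 of 14 with PBA in hIAPP mice. The endothelial list rose for 7 and fell for 8 of 12. Of all genes, 7.77% were called higher and 3.19% lower with the transgene, and 1.78% higher and 6.32% lower with PBA in hIAPP mice. Without the 2 arrays that stood apart, fewer macrophage, stellate and endothelial genes were called higher with the transgene and lower with PBA in hIAPP mice. Far fewer genes of any kind were called in that fit, as given below. The shares of all genes above belong to the fit of all arrays, and the drop is not particular to these lists.

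**Figure D3:**
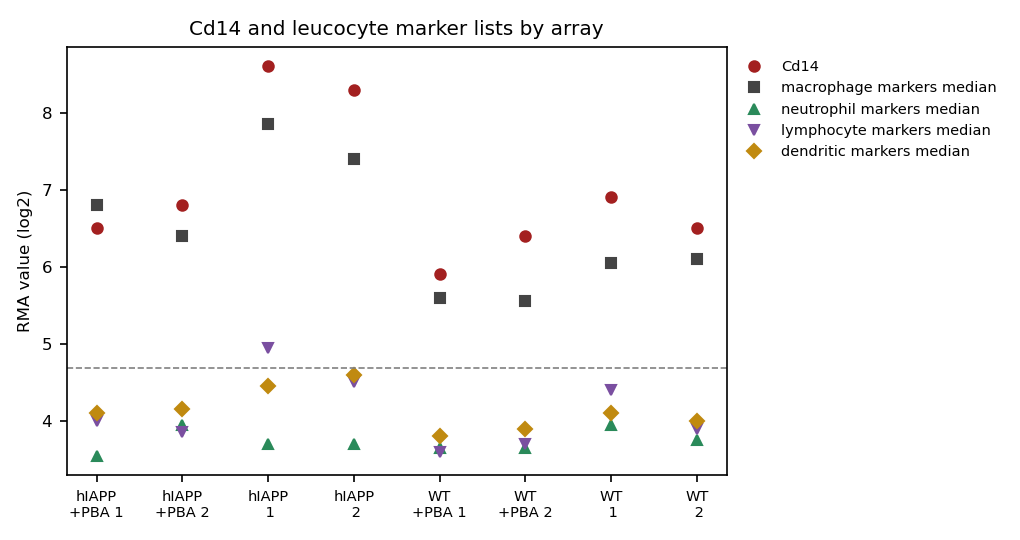
Cd14 and the median of each leucocyte marker list (RMA value, log2, y axis) on the 8 arrays (x axis), with a dashed line at the control level. Cd14 and the macrophage median were both highest on the 2 untreated hIAPP arrays, at 8.6 and 8.3 for Cd14 and 7.85 and 7.4 for the macrophage median, and heights are to be compared between arrays and not between genes.

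Tlr2 makes the surface receptor for lipopeptides and is the partner of TLR1 and TLR6. It read 7.9 and 7.8 on the hIAPP arrays with PBA and 8.2 and 8.0 on the untreated hIAPP arrays. It read 8.0 and 7.7 on the wild-type arrays with PBA and 7.8 and 8.0 on the untreated wild-type arrays. The 4 groups spanned no more than 0.5 in all, and every group overlapped with untreated wild type. The difference was 0.2 (SE 0.142, 95% interval -0.13 to 0.53, limma adjusted p = 0.446) for the transgene without PBA. It was -0.25 (SE 0.142, 95% interval -0.58 to 0.08, limma adjusted p = 0.349) for PBA in hIAPP mice, and differences inside these intervals were not detectable with 2 arrays a group.

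Tlr1 and Tlr6 make the partners of TLR2. Tlr1 read 3.4 and 3.3 on the hIAPP arrays with PBA, 4.4 and 3.8 on the untreated hIAPP arrays, 3.4 and 3.8 on the wild-type arrays with PBA, and 3.8 and 3.7 on the untreated wild-type arrays. Untreated hIAPP 1 stood above the rest, 1 PBA-treated hIAPP array was level with 1 PBA-treated wild-type array, and every value lay below the control level. The Tlr1 difference was -0.75 for PBA in hIAPP mice (SE 0.212, limma adjusted p = 0.0805) and 0.35 for the transgene without PBA (SE 0.212, limma adjusted p = 0.365). Without untreated hIAPP 1 these were -0.45 and 0.05, and without untreated hIAPP 2 they were -1.05 and 0.65. Tlr6 ranged from 3.5 to 3.9 over all 8 arrays, and its groups differed by at most 0.4 in their means.

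Tlr4 makes the lipopolysaccharide receptor and has 2 probe sets, whose results differed. The probe set with the higher mean, 1418163_PM_at, read 3.3 and 3.8 on the hIAPP arrays with PBA and 4.1 and 4.7 on the untreated hIAPP arrays. It read 3.5 on both PBA-treated wild-type arrays and 4.0 and 4.1 on the untreated wild-type arrays. The untreated hIAPP arrays were the highest but 1 of them was level with untreated wild type.

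The other Tlr4 probe set, 1418162_PM_at, read 3.3 and 3.8 on the hIAPP arrays with PBA and 4.6 and 4.7 on the untreated hIAPP arrays. It read 3.3 and 3.4 on the wild-type arrays with PBA and 3.5 and 3.6 on the untreated wild-type arrays. Here the untreated hIAPP arrays lay above all others, though only 1 of them passed the control level.

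With 1418163_PM_at, the Tlr4 difference was 0.35 for the transgene without PBA (SE 0.225, limma adjusted p = 0.390) and -0.85 for PBA in hIAPP mice (SE 0.225, limma adjusted p = 0.0660). With 1418162_PM_at, in a fit of all 45037 non-control probe sets, the differences were 1.1 (SE 0.168, limma adjusted p = 0.0083) and -1.1 (SE 0.168, limma adjusted p = 0.0124). In that fit, 2820 probe sets (6.26%) were called for the transgene and 1993 (4.43%) for PBA in hIAPP mice. The probe sets for Cd14 and this one for Tlr4 were the 2 of the 14 that passed, in either comparison. The fit with 1418162_PM_at was not repeated with arrays left out. With 1418163_PM_at the PBA difference in hIAPP islets also passed with an intensity trend in the prior (limma adjusted p = 0.0470), and it was -0.6 without the 2 arrays that stood apart (0.385). Leaving out single arrays moved its transgene difference between 0.05 (without untreated hIAPP 2) and 0.65 (without untreated hIAPP 1), and its PBA difference between -0.55 and -1.15 (without the same arrays).

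**Figure D4:**
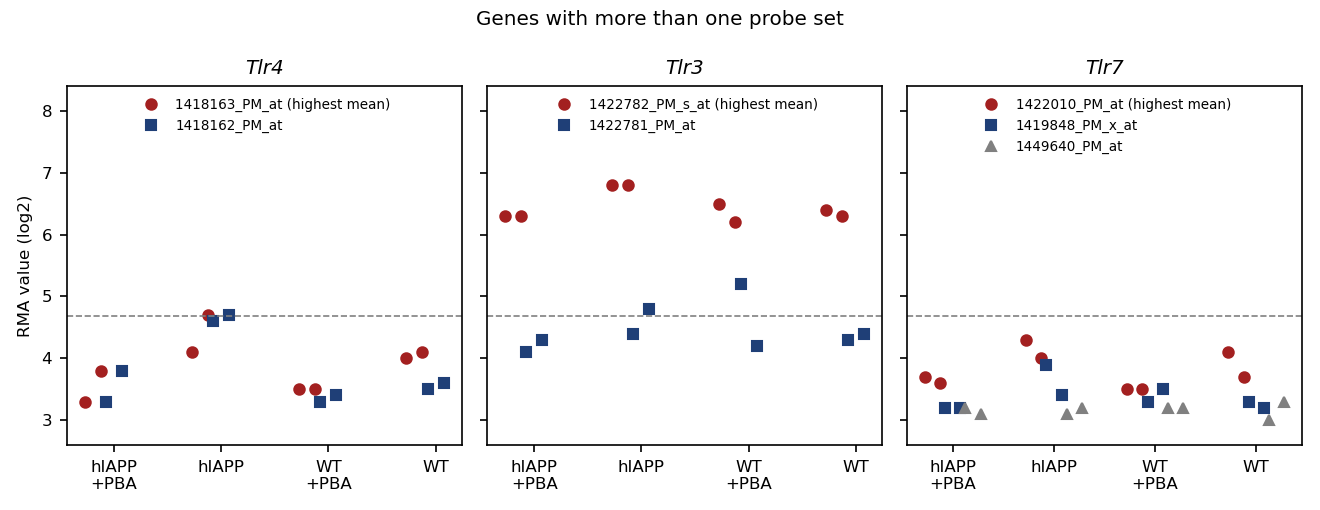
Every probe set of Tlr4, Tlr3 and Tlr7 (RMA value, log2, y axis) by group (x axis), 1 point per array, with a dashed line at the control level of 4.68. On the untreated hIAPP arrays Tlr4 1418162_PM_at stood at 4.6 and 4.7, above its other 6 arrays at 3.3 to 3.8, while 1418163_PM_at stood at 4.1 and 4.7 with untreated wild type at 4.0 and 4.1, and heights are to be compared within a probe set.

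Tlr3 makes the endosomal receptor for double-stranded RNA. Its probe set 1422782_PM_s_at read 6.3 on both PBA-treated hIAPP arrays and 6.8 on both untreated hIAPP arrays. It read 6.5 and 6.2 on the wild-type arrays with PBA and 6.4 and 6.3 on the untreated wild-type arrays. The untreated hIAPP arrays were above all others, and the remaining 3 groups overlapped.

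The Tlr3 difference was 0.45 for the transgene without PBA (SE 0.122, 95% interval 0.17 to 0.73, limma adjusted p = 0.0588) and -0.5 for PBA in hIAPP mice (SE 0.122, 95% interval -0.79 to -0.21, limma adjusted p = 0.0504). Over 18 alternatives the limma adjusted p ran from 0.0258 to 0.684 for the transgene, with 4 that passed, and from 0.0314 to 0.494 for PBA in hIAPP mice, with 5 that passed. The lowest values came without either PBA-treated wild-type array and the highest with the second Tlr3 probe set. Without an untreated hIAPP array or an untreated wild-type array the transgene value was 0.158 to 0.244, and without the 2 arrays that stood apart the PBA difference was -0.5 (limma adjusted p = 0.116). The second Tlr3 probe set, 1422781_PM_at, read 4.1 and 4.3 on the hIAPP arrays with PBA, 4.4 and 4.8 on the untreated hIAPP arrays, 5.2 and 4.2 on the wild-type arrays with PBA, and 4.3 and 4.4 on the untreated wild-type arrays. It was highest on PBA-treated wild type 1, the array with low hybridisation controls, and showed no such order.

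Tlr7, Tlr8 and Tlr9 make the endosomal receptors for single-stranded RNA and for CpG DNA. Tlr7 (1422010_PM_at) read 3.7 and 3.6 on the hIAPP arrays with PBA, 4.3 and 4.0 on the untreated hIAPP arrays, 3.5 on both PBA-treated wild-type arrays, and 4.1 and 3.7 on the untreated wild-type arrays. The PBA-treated arrays of each genotype lay below its untreated arrays by this probe set. Its other 2 probe sets, 1419848_PM_x_at and 1449640_PM_at, ranged from 3.2 to 3.9 and from 3.0 to 3.3. For PBA in hIAPP mice the differences were -0.5 for Tlr7, -0.35 for Tlr8 and -0.25 for Tlr9, with limma adjusted p-values of 0.112, 0.136 and 0.283. Tlr8 ranged from 3.3 to 3.8 and Tlr9 from 3.6 to 3.9 over all arrays.

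Myd88 makes the adaptor shared by these receptors except TLR3, and by the interleukin 1 receptor. It read 7.3 and 7.4 on the hIAPP arrays with PBA and 7.8 on both untreated hIAPP arrays. It read 7.3 and 7.2 on the wild-type arrays with PBA and 7.7 and 7.4 on the untreated wild-type arrays. The untreated hIAPP arrays were the highest, and PBA-treated arrays were at or below 7.4 in either genotype. The difference was 0.25 for the transgene without PBA (SE 0.124, limma adjusted p = 0.265) and -0.45 for PBA in hIAPP mice (SE 0.124, limma adjusted p = 0.0736). The PBA difference passed in 2 of 18 alternatives, with only genes of a mean of at least 5 (limma adjusted p = 0.0460) and with an intensity trend in the prior (0.0453), and the highest adjusted p was 0.3002, at -0.4 without the 2 arrays that stood apart. The transgene difference was 0.1 without untreated wild type 2 and 0.4 without untreated wild type 1.

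PBA in wild-type mice was the third comparison, and none of the 10 genes passed it, and 50 of all genes did (0.292%, with 0.146% in each direction). The lowest limma adjusted p among the 10 was 0.443, for Cd14. Cd14 averaged 6.15 ± 0.354 with PBA and 6.7 ± 0.283 without it (SD, n = 2 each), a difference of -0.55 (SE 0.22, 95% interval -1.07 to -0.03). Unadjusted p-values were below 0.05 for Cd14, Tlr4, Tlr7 and Myd88, with differences of -0.55, -0.55, -0.4 and -0.3. The same held for 10.5% of all genes, 5.49% with a negative difference. Tlr4 and Tlr7 were below the control level in both wild-type groups. Their other probe sets differed by -0.2 for Tlr4 and by 0.15 and 0.05 for Tlr7. The groups did not overlap, with the PBA-treated arrays lower, in 6 of the 10 genes, against 14.9% of all genes. Without the 2 arrays that stood apart, the Cd14 difference was -0.3. That fit leaves 1 array in each PBA-treated group, and its lack of calls extends to all genes.

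The transgene was also compared between PBA-treated mice, and 0 of the 10 genes passed by limma, with 0 at an unadjusted p below 0.05. Of all genes, 72 (0.421%) were called, 0.322% as higher and 0.0994% as lower. Cd14 averaged 6.65 ± 0.212 in hIAPP islets and 6.15 ± 0.354 in wild-type islets under PBA (SD, n = 2 each), a difference of 0.5 (SE 0.22, limma adjusted p = 0.420), or 0.4 without the 2 arrays that stood apart (0.641). In 2 of the 10 genes the hIAPP arrays were both higher, against 15.6% of all genes. The macrophage list had 7 of 20 genes higher in the same comparison, with a median difference of 0.93.

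PBA-treated hIAPP islets were set against untreated wild-type islets to ask how far the treated transgenic tissue lay from normal. No gene of the 10 passed by limma, and 0 had an unadjusted p below 0.05, with 63 genes (0.368%) called in all, 0.252% as higher and 0.117% as lower. Cd14 differed by -0.05 (SE 0.22, 95% interval -0.57 to 0.47, limma adjusted p = 0.945; 0.1 and 0.892 without the 2 arrays that stood apart), Tlr3 by -0.05 (SE 0.122, 95% interval -0.34 to 0.23) and Myd88 by -0.2 (SE 0.124, 95% interval -0.49 to 0.09). Tlr4 differed by -0.5 with its probe set of the higher mean (SE 0.225, limma adjusted p = 0.475). The PBA-treated hIAPP arrays were both lower for Tlr4 with that probe set, for Tlr1 and for Tlr9. These were 3 of 10 genes, against 16.0% of all genes. The other Tlr4 probe set differed by 0 (SE 0.168). It read 3.3 and 3.8 on the PBA-treated hIAPP arrays and 3.5 and 3.6 on the untreated wild-type arrays, so the groups overlapped. A p-value above the threshold does not show that the groups are alike, and the intervals state what 2 arrays a group can resolve.

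Whether PBA acted differently in the 2 genotypes was tested as an interaction, and none of the 10 genes passed, with 335 genes (1.96%) called in all, 0.269% as positive and 1.69% as negative. For Cd14 the PBA difference was -1.8 in hIAPP and -0.55 in wild-type islets, and the interaction was -1.25 (SE 0.311, 95% interval -1.98 to -0.52, limma adjusted p = 0.104). Without the 2 arrays that stood apart it was -1.35 (limma adjusted p = 0.288). For Tlr3 the PBA difference was -0.5 in hIAPP and 0 in wild-type islets, and the interaction was -0.5 (SE 0.172, limma adjusted p = 0.205). These were the 2 of the 10 with an unadjusted p below 0.05, near the 16.2% of all genes with one. A genotype dependence of the PBA response was therefore not shown for these genes after adjustment.

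The rest of the Toll-like receptor pathway was described by lists of its parts. Here the share of a list past the threshold is set beside the 7.77% of all genes called higher with the transgene and the 6.32% called lower with PBA in hIAPP mice. The macrophage medians given above moved in the same direction on the same arrays, and so did the acinar median with PBA, at 9.3 and 10.8 in PBA-treated hIAPP islets and 11.8 and 12.7 in untreated hIAPP islets. The part of either in the counts was not tested. Of the genes named from the lists, Atf3, Cd86, Cxcl2, Eln, Itgam, Map3k8, Pdlim2 and S100a8 had both arrays of at least 1 group below the control level, where background may hide part of a difference.

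Of the other receptors, Tlr5 for flagellin and Tlr12 for profilin were both below the control level on all arrays, and neither passed. Tlr5 differed by 0.05 and Tlr12 by -0.25 for the transgene without PBA, and by -0.15 and 0.15 for PBA in hIAPP mice.

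Among 7 co-receptors, 4 were higher with the transgene, and 5 were lower in PBA-treated than in untreated hIAPP islets. The median differences were 1.2 and -1.15. Cd36, a scavenger receptor that works with TLR2 and with TLR4, read 5.8 and 5.3 on the hIAPP arrays with PBA, 8.4 and 8.2 on the untreated hIAPP arrays, 5.7 and 5.6 on the wild-type arrays with PBA, and 7.0 and 6.8 on the untreated wild-type arrays. PBA-treated arrays were the low ones in either genotype for this gene. Cd36 was higher by 1.4 with the transgene (limma adjusted p = 0.0034) and fell by 2.75 with PBA in hIAPP islets (0.0011).

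Ly86, which encodes the partner of the TLR4 homologue RP105, was higher by 1.2 with the transgene (limma adjusted p = 0.0080) and fell by 1.15 with PBA in hIAPP islets (0.0130). Lbp, the lipopolysaccharide binding protein that loads CD14, was higher by 1.7 (limma adjusted p = 0.0194) and fell by 1.6 (0.0310). Itgb2, the beta chain of the leucocyte integrins, was higher by 1.8 (limma adjusted p = 0.0019) and fell by 1.5 (0.0059). Itgam, the alpha chain of complement receptor 3, differed by 0.7 with the transgene (limma adjusted p = 0.0617) and fell by 0.95 with PBA (0.0268).

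Among 9 genes for trafficking and processing of the receptors, 4 were higher with the transgene and 3 were lower with PBA in hIAPP mice, with median differences of 0.5 and -0.25. Unc93b1, which carries the nucleic acid receptors to endosomes, read 7.0 and 6.9 on the hIAPP arrays with PBA, 7.6 and 7.5 on the untreated hIAPP arrays, 6.6 and 6.5 on the wild-type arrays with PBA, and 7.1 and 6.7 on the untreated wild-type arrays. The untreated hIAPP arrays lay above the others. It was higher by 0.65 with the transgene (limma adjusted p = 0.0297) and fell by 0.6 with PBA (0.0493). The cathepsins Ctss and Ctsk, proteases that cut receptors in endolysosomes, were higher by 1.25 and 2.1 with the transgene (limma adjusted p = 0.0012 and 9.5e-04). They were lower with PBA in hIAPP islets, with differences of -0.75 and -1.25 (limma adjusted p = 0.0119 and 0.0096). Under PBA, Ctss was still higher in hIAPP than in wild-type islets, by 1.05 (0.0240). Cnpy4, a chaperone for the surface receptors, was higher by 0.5 with the transgene (limma adjusted p = 0.0412) and differed by -0.25 with PBA (0.273). Lgmn, asparagine endopeptidase, differed by 0.65 and -0.65 with adjusted p-values of 0.0693 and 0.0812.

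Among 16 adaptors and kinases, 3 were higher with the transgene and the same 3, Irak2, Pik3ap1 and Map3k8, were lower with PBA in hIAPP mice. The median differences were -0.025 and 0.05, next to those of all genes. Pik3ap1, also called BCAP, which links these receptors to phosphoinositide 3-kinase, read 6.4 and 6.1 on the hIAPP arrays with PBA, 7.8 and 7.6 on the untreated hIAPP arrays, 5.0 and 4.7 on the wild-type arrays with PBA, and 5.9 and 6.0 on the untreated wild-type arrays. It was higher by 1.75 with the transgene (limma adjusted p = 8.6e-04) and fell by 1.45 with PBA (0.0029). Under PBA it was still higher in hIAPP than in wild-type islets, by 1.4 (limma adjusted p = 0.0209). Irak2, a kinase of the MYD88 complex, was higher by 0.75 with the transgene (limma adjusted p = 0.0121) and fell by 0.65 with PBA in hIAPP islets (0.0272). Map3k8, a kinase upstream of ERK, was higher by 0.5 (limma adjusted p = 0.0482) and fell by 0.6 (0.0323). Irak1, a kinase next to IRAK2 in the complex, differed by -0.25 and 0.25 and did not pass, nor did Ikbkg, the regulatory subunit of the IKK complex, at 0.15 and -0.4.

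Among 11 transcription factors downstream of the receptors, 6 were higher with the transgene and 4 were lower with PBA in hIAPP mice, with median differences of 0.45 and -0.55. The NF-kB subunits Nfkb2, Rela and Relb were higher by 0.85, 0.45 and 1.15 (limma adjusted p = 0.0264, 0.0380 and 0.0151) and lower with PBA, with differences of -0.9, -0.55 and -1.0 (0.0271, 0.0227 and 0.0325). With single arrays left out, their transgene differences ran from 0.75 to 0.95, 0.35 to 0.55 and 0.85 to 1.45. Their PBA differences ran from -1.1 to -0.7, -0.6 to -0.5 and -1.15 to -0.85, and these calls were not all kept. Irf8, a factor of the myeloid lineage, read 5.7 and 5.6 on the hIAPP arrays with PBA, 7.0 and 7.1 on the untreated hIAPP arrays, 5.1 and 5.0 on the wild-type arrays with PBA, and 6.1 and 5.3 on the untreated wild-type arrays. It was higher by 1.35 with the transgene (limma adjusted p = 0.0110) and fell by 1.4 with PBA (0.0129). Atf3, a repressor of receptor targets, was higher by 0.85 (limma adjusted p = 0.0353) and differed by -0.8 with PBA (0.0525).

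Among 18 inhibitors of the pathway, 6 were higher and 1, Tollip, was lower with the transgene, and 4 were lower with PBA in hIAPP mice, with median differences of 0.35 and -0.425. Nfkbia, the NF-kB inhibitor that is itself an NF-kB target, read 9.7 and 9.6 on the hIAPP arrays with PBA, 10.3 and 10.4 on the untreated hIAPP arrays, 9.5 and 9.6 on the wild-type arrays with PBA, and 9.7 on both untreated wild-type arrays. The 2 untreated hIAPP arrays stood above a narrow band of the other 6. It was higher by 0.65 with the transgene (limma adjusted p = 0.0067) and fell by 0.7 with PBA (0.0079). Pdlim2, which marks RELA for degradation, was higher by 1.85 (limma adjusted p = 4.0e-04) and fell by 1.6 (0.0014), and Lilrb4a, an inhibitory receptor of myeloid cells, was higher by 1.55 (0.0075) and fell by 1.15 (0.0324). Tnfaip3, the ubiquitin-editing enzyme A20, was higher by 1.05 (limma adjusted p = 0.0115) and differed by -0.75 with PBA (0.0504). Dusp1, a phosphatase of MAP kinases, differed by 0.4 with the transgene (limma adjusted p = 0.0560) and fell by 0.75 with PBA (0.0078).

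Among 13 endogenous ligands, 5 were higher and 1 was lower with the transgene, and 8 were lower with PBA in hIAPP mice, with median differences of 0.45 and -1.2. Biglycan, Bgn, a matrix proteoglycan that binds TLR2 and TLR4, read 9.3 and 9.6 on the hIAPP arrays with PBA, 11.0 and 10.8 on the untreated hIAPP arrays, 8.7 and 8.3 on the wild-type arrays with PBA, and 8.8 and 8.6 on the untreated wild-type arrays. It was higher by 2.2 with the transgene (limma adjusted p = 5.9e-04) and fell by 1.45 with PBA (0.0044). The stellate marker median moved with it, at 7.1 and 7.55 in PBA-treated hIAPP islets and 8.9 on both untreated hIAPP arrays, against 6.5 and 5.95 in PBA-treated wild-type islets and 6.3 and 6.0 in untreated wild-type islets.

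Lgals3, galectin 3, was higher by 2.3 with the transgene (limma adjusted p = 5.9e-04) and fell by 2.05 with PBA in hIAPP islets (0.0020). It also differed by -1.6 with PBA in wild-type islets (limma adjusted p = 0.0238). Under PBA it was still higher in hIAPP than in wild-type islets, by 1.85 (0.0153). Eln, elastin, was higher by 1.8 with the transgene (limma adjusted p = 0.0011) and fell by 1.35 with PBA in hIAPP islets (0.0051). S100a8, a subunit of calprotectin, read 4.5 and 4.2 on the hIAPP arrays with PBA, 5.5 and 5.6 on the untreated hIAPP arrays, 3.9 and 3.8 on the wild-type arrays with PBA, and 6.6 and 7.0 on the untreated wild-type arrays. Its highest arrays were those of untreated wild type, unlike those of Cd14. It was lower in each of 3 comparisons, with differences of -1.25 for the transgene (limma adjusted p = 0.0036), -1.2 for PBA in hIAPP islets (0.0065) and -2.95 for PBA in wild-type islets (0.0022).

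Among 25 inflammatory target genes, 2 were higher with the transgene, a share of 8.0%, near the background, and 5 were lower with PBA in hIAPP mice. The median differences were 0.1 and -0.3. Of the 25, 14 were below the control level on all arrays, among them Tnf, Il12b, Il10, Ifnb1, Nos2 and Ptgs2. Icam1, an adhesion molecule, read 5.1 and 5.0 on the hIAPP arrays with PBA, 7.3 and 7.4 on the untreated hIAPP arrays, 4.5 and 5.0 on the wild-type arrays with PBA, and 5.7 and 5.4 on the untreated wild-type arrays. It was higher by 1.8 with the transgene (limma adjusted p = 0.0014) and fell by 2.3 with PBA (0.0014). Cd86, a co-stimulatory molecule, was higher by 0.8 (limma adjusted p = 0.0049) and fell by 0.65 (0.0152). The chemokines Cxcl2 and Ccl5 differed by 0.75 and 1.25 with the transgene (limma adjusted p = 0.0775 and 0.0902) and fell with PBA, with differences of -1.45 and -1.85 (0.0096 and 0.0302).

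**Figure D5:**
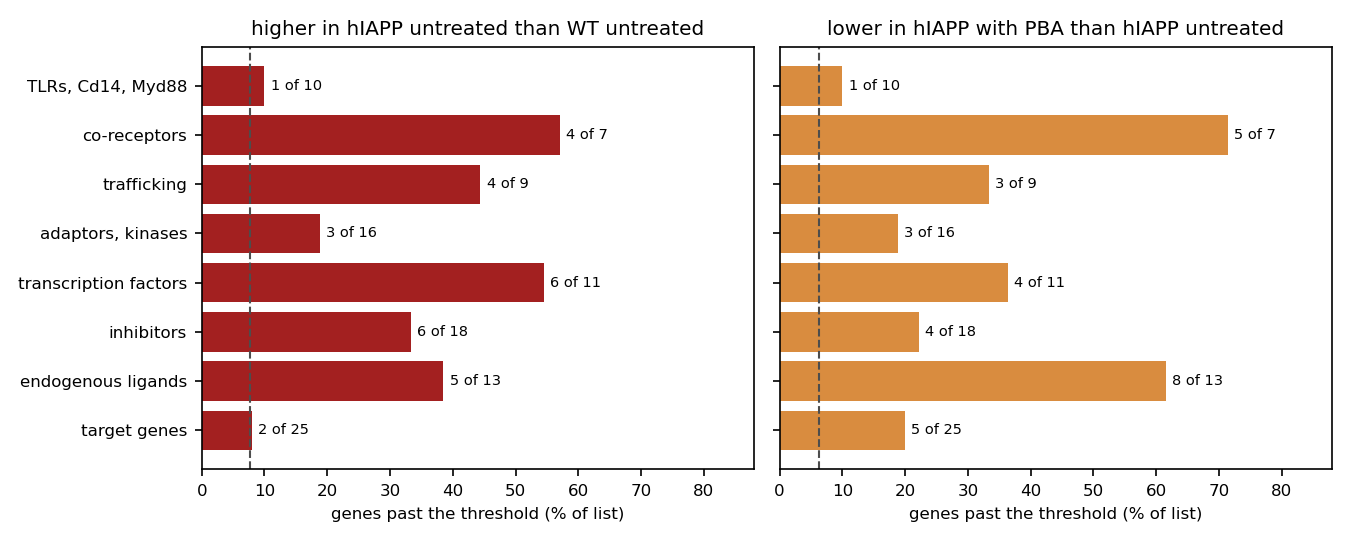
The share of each list past the threshold (percent, x axis), with hIAPP above wild type (no PBA) on the left and lower in PBA-treated than in untreated hIAPP islets on the right, with a dashed line at the share of all genes (7.77% and 6.32%) and the count beside each bar. The co-receptor list reached 4 and 5 of 7 genes, while the 8 receptors, Cd14 and Myd88 reached 1 of 10 on either side.

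The list counts and the adjusted p-values of the named pathway genes rested on the fit of all 8 arrays. The calls of the named genes were not all kept when 1 array was left out. With only the groups compared, 484 of all genes were called for the transgene without PBA. In that fit 0 of 7 co-receptors, 0 of 9 trafficking genes, 0 of 11 transcription factors and 2 of 16 adaptors and kinases were called higher. Without the 2 arrays that stood apart, fewer genes of each of these lists were called higher with the transgene and lower with PBA in hIAPP mice. That fit leaves 1 array in each PBA-treated group and calls far fewer genes of any kind, as given below. The drop is therefore not particular to these lists.

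Genes with the pattern most like those of single receptors were looked for over the 8 arrays among 2277 genes that spanned at least 1 log2. The arrays share 4 groups, so these correlations follow the group means and are a description. For Cd14 the nearest were Lsp1 (Pearson's r = 0.996), Slc7a7 (0.995) and Ifitm2 (0.991). Lsp1 read 5.0 and 5.3 on the hIAPP arrays with PBA, 7.3 and 7.2 on the untreated hIAPP arrays, 4.3 and 4.7 on the wild-type arrays with PBA, and 5.5 and 4.9 on the untreated wild-type arrays. For Tlr4 they were Snn (0.969), Stap2 (0.938) and Cyp2d22 (0.935), and for Tlr1 they were Tpbg (0.968), Lonrf3 (0.955) and Car8 (0.946). The Tlr4 and Tlr1 patterns rest on values near the control level.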

How the data were processed

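Islet RNA was hybridised to 8 Affymetrix arrays. The deposited table holds log2 values made with RMA from the affy package, per the submitters' processing notes (version not given in the sources used here), which subtracts background, quantile-normalises and summarises probes. The values were deposited with 1 decimal and used as they stood, so the rounding and the number of arrays limit the precision. Probe set symbols came from GEO's platform annotation: 28898 probe sets name 1 gene, 551 several and 15588 none, and the 104 control probe sets were left out. Where several sets name a gene, that with the highest mean stood for it, which gave 17097 genes.

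limma 3.58.1 in R 4.3.3 (lmFit and eBayes) fitted the 4 group means on all 8 arrays, with 4 residual and 3.27 prior degrees of freedom. The 6 comparisons were two-sided, adjusted by Benjamini-Hochberg over all genes, with a threshold of 0.05. An exact permutation test of 2 against 2 arrays cannot go below p = 0.333. The fit was tested on simulated data. Python 3.11.15, pandas 2.3.3 and matplotlib 3.10.9 handled tables and plots.

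The 10 genes, the 8 pathway lists and the 8 cell type lists were chosen with earlier results of these data known. Named were all 10 genes with every probe set, and of each pathway list up to 4 genes with the smallest p in each of the first 2 comparisons. For each of the 10 that spanned at least 1 log2, the 3 genes with the highest Pearson's r were added, and predicted and small RNA genes were not named. Tollip, the macrophage markers at background and the targets at background were named after their values were seen. List genes not analysed here are Tlr11, Tlr13, Scarf1, Tasl, Ticam2, Irak4, Traf3, Chuk, Ripk1, Nfkb1, Il1rl1, Tnip3, Hspd1 and Hspa1a. Alternatives were a filter on low means, only the groups compared, a replicate block, an intensity trend, a robust prior, array weights, median centring, another probe set rule, all probe sets, each array left out and, chosen after seeing the data, the 2 arrays that stood apart left out.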

Additional observations from a re-analysis of the deposited data

Results flagged for a closer look

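Of the pathway genes named, 5 passed the test of the interaction in limma, adjusted over all genes, as did 1.96% of all genes. The pathway genes were named for small p-values in the first 2 comparisons. The untreated hIAPP arrays are in both of those and in the interaction. The choice of genes therefore favoured such calls, and the 5 are no independent support for a genotype dependence. Cd36 differed with PBA by -2.75 in hIAPP islets and -1.25 in wild-type islets, an interaction of -1.50 (SE 0.25, adjusted p = 0.0368). Icam1 differed by -2.30 in hIAPP islets and -0.80 in wild-type islets, an interaction of -1.50 (SE 0.256, adjusted p = 0.0395). Pdlim2 differed by -1.60 in hIAPP islets and -0.05 in wild-type islets, an interaction of -1.55 (SE 0.176, adjusted p = 0.0155). Pdlim2 was below the control level in every wild-type array and in PBA-treated hIAPP islets, so a fall in wild-type islets could not have been seen.

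Cd86 differed with PBA by -0.65 in hIAPP islets and 0.40 in wild-type islets, an interaction of -1.05 (SE 0.159, adjusted p = 0.0287). Cd86 too was below the control level in both wild-type groups and in PBA-treated hIAPP islets, and its direction in wild-type islets is read from background values. S100a8 differed by -1.20 in hIAPP islets and -2.95 in wild-type islets, an interaction of 1.75 (SE 0.23, adjusted p = 0.0211). Both PBA-treated groups of S100a8 were below the control level, so each difference may be larger than measured and the sizes have no order. The calls passed in 7 of 16 alternatives for Cd36, 6 of 16 for Icam1, 6 of 15 for Pdlim2, 3 of 15 for Cd86 and 6 of 16 for S100a8. With any 1 array left out these calls were lost. The interaction then ran from -1.75 to -1.25 for Cd36 and for Icam1, and from -1.7 to -1.4 for Pdlim2. It ran from -1.15 to -0.95 for Cd86 and from 1.55 to 1.95 for S100a8. None of the 8 receptors, Cd14 and Myd88 passed the interaction test in limma on all 8 arrays, and the lowest adjusted p among them was 0.104, for Cd14.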

How the results depend on the processing

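With 2 arrays a group, signal over background and array number limit what can be seen, and 6 of the 10 genes are near the control level. For the transgene without PBA, genes called were 484 with only the groups compared and without the 2 arrays that stood apart, and 2820 with all probe sets. Of the 10 genes 2 were called with the filter on means (4 of the 10 tested), array weights, the largest-variance probe set or all probe sets, and 0 with only the groups compared or without those 2 arrays. For PBA in hIAPP mice, genes called were 14 with only the groups compared and 0 without the 2 arrays. Of the 10, 3 were called with the trend, 3 with the filter, which left 4 of the 10 to test, 2 with the robust prior, array weights, the largest-variance probe set or all probe sets, and 0 with only the groups compared or without the 2 arrays. The causes were not tested, beyond the fewer arrays or genes that some settings use, and a group left with 1 array was assumed to vary like the others. For PBA in wild-type mice, genes called were 88 with the filter, 118 with the trend, and 0 with only the groups compared or without the 2 arrays. For the transgene under PBA they were 129 with the trend, 38 with array weights, 0 with only the groups compared and 1 without the 2 arrays. For PBA-treated hIAPP against untreated wild type they were 173, 0 and 1 with the trend, only the groups compared and without the 2 arrays. For the interaction they were 576 with the trend and 0 without the 2 arrays.

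Same-numbered arrays showed no strong shared deviation (correlations of -0.14 to 0.098). The labels do not state a pairing by number, and these correlations cannot exclude one. The replicate block gave 5 genes for PBA in wild-type mice, 15 for the transgene under PBA, 30 for PBA-treated hIAPP against untreated wild type and 118 for the interaction, and Cd14 kept both calls (adjusted p = 0.0144 and 0.0191).

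Leaving out single arrays gave 568 to 1579 genes and 0 to 2 of the 10 for the transgene without PBA, the lowest without untreated wild type 2, and a fall of more than 1.5 times without any of the 4 untreated arrays. It gave 166 to 968 genes and 0 to 2 of the 10 for PBA in hIAPP mice, the lowest without untreated hIAPP 1, and a fall of more than 1.5 times without any array except those of PBA-treated wild type. It gave 0 to 2 genes for PBA in wild-type mice, 5 to 13 for the transgene under PBA, 2 to 16 for PBA-treated hIAPP against untreated wild type and 0 to 3 for the interaction, with 0 of the 10 in these.

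Signs turned for differences that did not pass. Without the 2 arrays, PBA in wild-type mice gave 0.05 for Tlr1, the transgene under PBA 0.10 for Tlr3, PBA-treated hIAPP against untreated wild type 0.10 for Cd14, the interaction 0.05 for Tlr8 and PBA in hIAPP mice -0.20 for Tlr12. With centred arrays, the transgene under PBA gave -0.05 for Tlr4 and for Tlr8. With single arrays left out, ranges crossed 0 for Tlr12 with PBA in hIAPP mice (-0.20 to 0.50), for Tlr1 (-0.35 to 0.05), Tlr2 (-0.20 to 0.10) and Tlr9 (-0.25 to 0.05) with PBA in wild-type mice, for Tlr3 (-0.20 to 0.10), Tlr4 (-0.20 to 0.30) and Tlr8 (-0.05 to 0.15) for the transgene under PBA, for Cd14 (-0.25 to 0.15) and Tlr2 (-0.15 to 0.05) against untreated wild type, and for Tlr7 (-0.30 to 0.10) in the interaction.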
